A study of Homo sapiens with 6 samples.

Results

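The SLIT ligands, their ROBO receptors and the SRGAPs, GTPase-activating proteins that bind ROBO, were followed through an IRS2 knockdown in SW403 cells. The group was taken by gene symbol and holds 9 of the 26490 genes in the count table: SLIT1, SLIT2, SLIT3, ROBO1, ROBO2, ROBO3, SRGAP1, SRGAP2 and SRGAP3. It was put together around SLIT2, which was chosen by its measured log2 fold change, among the largest falls of this same comparison, so the values of SLIT2 are given as a description without a test. The other members were listed as relatives and partners of SLIT2 with the results of the comparison already known. SW403 cells are an established line from a human colon adenocarcinoma. The control group is 3 libraries from SW403 cells of labelled genotype WT, with normal IRS2 expression, and the knockdown group is 3 libraries from SW403 cells labelled IRS2_knockdown. Both were grown for 24 h in DMEM with fetal bovine serum and no added treatment. The count table heads the columns of the control libraries NS and those of the knockdown libraries IRS2KO, whereas the sample labels say control and knockdown. What NS stands for is not given in the sources used here. How IRS2 was lowered, and whether the knockdown cells are 1 clone or a pool, is not given in the sources used here. The titles number the libraries of each group as biological replicates, but nothing says that they came from separately made lines, so p-values measure the spread between these cultures.

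SLITs are large secreted proteins that bind ROBO receptors on the cell surface with the help of heparan sulfate. They were first known for turning growing axons away from the midline of the nervous system. ROBO signalling works through adaptors and GTPase regulators, among them the SRGAPs, which act on small GTPases such as RAC1 and CDC42, and changes the actin cytoskeleton and cell adhesion. In epithelial tissue, the colon included, SLIT2 and ROBO1 are known as regulators of cell migration, and the SLIT2 promoter is often methylated in colorectal tumours.

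The libraries held 11816973 to 12585013 counts in control and 14329348 to 18114656 in knockdown, so each knockdown library was deeper than each control library. IRS2 itself, the targeted gene, was at 32.4, 34.8 and 32.2 CPM (counts divided by the library total, in units of 1e6) in control and at 13.0, 12.3 and 11.9 CPM in knockdown (edgeR log2 fold change -1.39 ± 0.07 SE, adjusted p 3.12e-11). Of 13832 genes with enough counts to be tested, 38.5% were called at an adjusted p below 0.05 by the quasi-likelihood test of edgeR, 19.3% higher and 19.2% lower in knockdown. Of the 9 listed colon epithelial markers, EPCAM, KRT8, KRT18, KRT19, CDX2 and VIL1 were expressed, KRT20 was at 0 in every library, and CDH1 and LGALS4 had at most 5 and 3 counts. EPCAM and KRT19 were called lower and CDX2 higher in knockdown. The 9 together summed to 2536 to 2637 CPM in control and 2364 to 2456 in knockdown. The 7 fibroblast markers summed to 8.72 to 20.8 CPM in control and 5.74 to 6.90 in knockdown. COL1A1 and COL3A1, which gave most of that sum, were called lower, with the highest counts in control replicate 1. For COL3A1 the CPM of the groups overlapped. PDGFRB, also tested, was not called (log2 fold change -0.18, edgeR adjusted p 0.609). LUM had at most 7 counts, and DCN, THY1 and FAP had at most 3. The endothelial, neural and leukocyte lists summed to at most 3.69, 7.64 and 3.38 CPM in any library, with PECAM1, CDH5 and STMN2 at 0. The part of these markers in the results that follow was not tested.

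Of the 8 members other than SLIT2, 7 had enough counts to be tested, and 4 of them had an adjusted p under 0.05 (edgeR), 2 higher (SLIT1 and SRGAP2) and 2 lower (ROBO1 and ROBO2), where 38.5% of all tested genes were called. Their log2 fold changes, knockdown minus control, ran from -2.30 to 0.47 with a median of -0.35, against a median of -0.00391 over all tested genes. That median is the value of SRGAP1, which was not called. SRGAP1, ROBO2 and SRGAP3 averaged 39.5, 11.3 and 9.83 counts. ROBO2, counted here as lower, had enough counts to be tested through its control libraries alone. Tested genes with a mean under 50 counts had a median of -0.193. In 3 of the 7 (SLIT1, ROBO1 and ROBO2) the CPM of the groups did not overlap, which held for 48.4% of all tested genes, 28.8% with the knockdown lower and 19.6% with it higher. SLIT3 was too low to be tested. The ligand, receptor and adaptor groups are taken in turn.

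SLIT2, the lead gene, lies on chromosome 4 (GRCh37, 20253528 to 20622184, plus strand), spans 369 kb and has 37 exons in its canonical GENCODE transcript. Control libraries held 370, 409 and 373 SLIT2 counts and knockdown libraries 106, 144 and 138, or 29.4, 32.6 and 31.6 CPM against 7.40, 8.44 and 7.62 CPM. All knockdown values lay below all control values. The means were 31.2 ± 1.62 and 7.82 ± 0.548 CPM (SD, n = 3 each), and the log2 fold change was -1.96 ± 0.08 (SE), a 3.89-fold lower level. Of the 10449 tested genes that averaged 100 counts or more, 2 had a lower log2 fold change. Over all 13832 tested genes, 89 had a lower one, the member ROBO2 among them. Because SLIT2 was chosen by its fall, these ranks describe the choice. Without any one library the log2 fold change of SLIT2 stayed between -2.02 and -1.92.

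**Figure D1:**
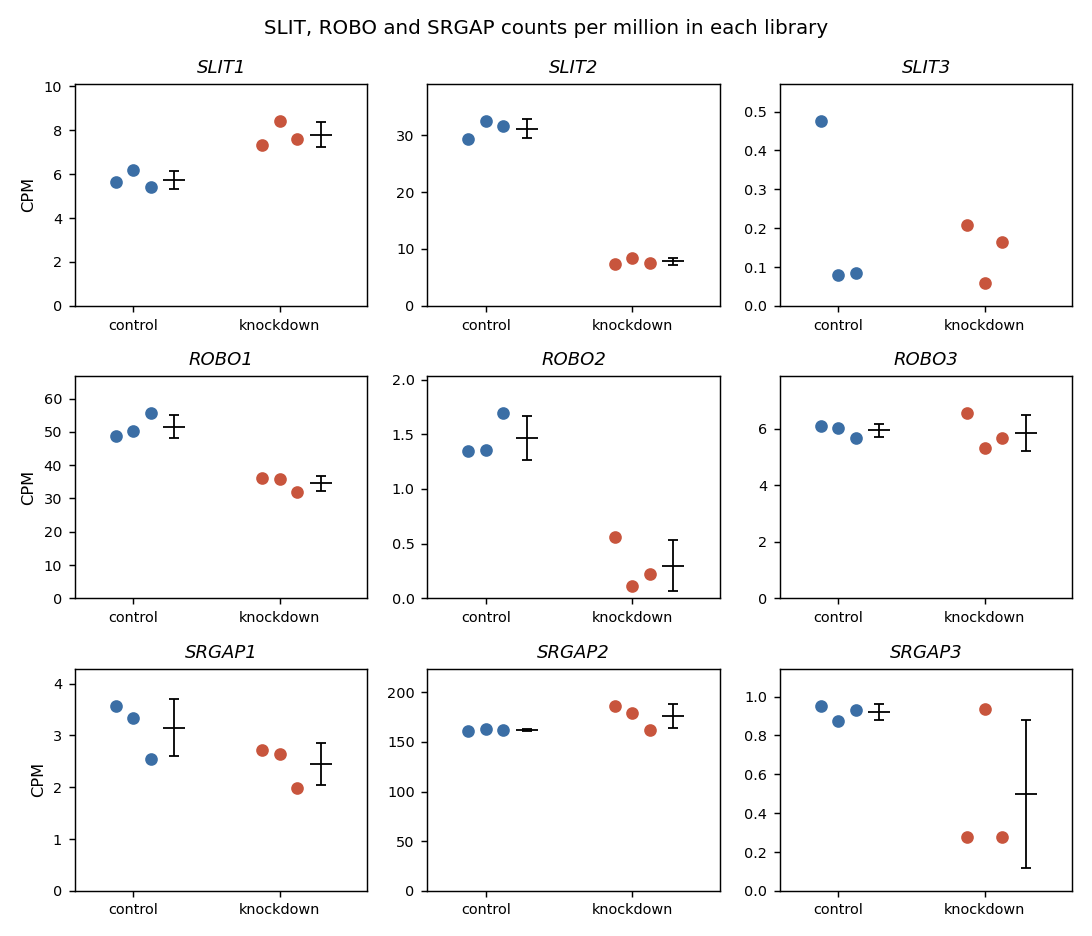
CPM of the 9 genes (vertical axes, linear from 0, scaled per gene) in the 3 control (blue) and 3 knockdown (red) libraries; black marks give the mean and SD of each group, left out for SLIT3, whose counts are 6 or fewer. SLIT2, ROBO1 and ROBO2 are lower and SLIT1 is higher in knockdown with no overlap, whereas the groups overlap for ROBO3, SRGAP1, SRGAP2 and SRGAP3.

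SLIT1, the ligand best known from the nervous system, moved the other way. It lies on chromosome 10 (GRCh37, 98757795 to 98945716, minus strand). It was at 5.64, 6.21 and 5.42 CPM in control and 7.33, 8.44 and 7.62 CPM in knockdown, so each knockdown value was above each control value. SLIT1 had a log2 fold change of 0.47 ± 0.13 (SE; 95% interval 0.20 to 0.74; edgeR adjusted p 0.00736). The call was lost with DESeq2's Wald test (log2 fold change 0.48, adjusted p 0.0673), and over the 14 alternatives the adjusted p ranged from 0.00332 to 0.0673. SLIT3, a ligand found in many tissues, was close to absent, with 6, 1 and 1 counts in control and 3, 1 and 3 in knockdown, which at this depth allows no statement on a difference.

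The shares of SLIT2 and SLIT1 in the ligand level differed between the groups, whereas those of SLIT3 overlapped. Per kilobase of canonical transcript, which allows levels of different genes to be compared, SLIT2 stood at 3.87 ± 0.201 CPM per kb and SLIT1 at 0.723 ± 0.0513 in control (SD, n = 3 each). In knockdown SLIT2 was at 0.971 ± 0.0681 and SLIT1 at 0.979 ± 0.0723 (SD, n = 3 each), levels that did not differ beyond their spread. SLIT2 gave 82.8% to 85.1% of the summed ligand level in the control libraries and 49.3% to 49.6% in the knockdown libraries, and SLIT1 gave 14.8% to 16.1% and 49.5% to 50.1%. The raw counts of both genes are nearly identical in each knockdown library (105 and 106, 144 and 144, 138 and 138). Whether a fault in the deposited table has a part in this was not tested, and the rise of SLIT1 and the knockdown shares rest on these counts. The sum of the 3 ligands was 4.41, 4.83 and 4.61 CPM per kb in control and 1.86, 2.11 and 1.92 in knockdown. Because SLIT2 was chosen by its fall and enters every share and this sum, their differences largely describe that choice. In a bulk sample, fewer cells with a transcript and less of it per cell cannot be told apart.

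The promoter windows of SLIT2 and SLIT1, which moved in opposite directions, are given from RefSeq (GRCh38.p14; 250 bases before to 50 after the annotated start; 5′ to 3′ on the gene's strand). Capitals mark any match to one of 6 motifs searched on both strands.
SLIT2 chr4:20251655-20251954 (plus strand): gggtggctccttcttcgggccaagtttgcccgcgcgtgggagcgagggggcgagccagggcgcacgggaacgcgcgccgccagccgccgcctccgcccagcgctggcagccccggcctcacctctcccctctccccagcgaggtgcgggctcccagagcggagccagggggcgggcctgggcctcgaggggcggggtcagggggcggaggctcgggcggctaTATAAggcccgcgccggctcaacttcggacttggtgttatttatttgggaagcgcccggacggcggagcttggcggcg
SLIT1 chr10:97185910-97186209 (minus strand): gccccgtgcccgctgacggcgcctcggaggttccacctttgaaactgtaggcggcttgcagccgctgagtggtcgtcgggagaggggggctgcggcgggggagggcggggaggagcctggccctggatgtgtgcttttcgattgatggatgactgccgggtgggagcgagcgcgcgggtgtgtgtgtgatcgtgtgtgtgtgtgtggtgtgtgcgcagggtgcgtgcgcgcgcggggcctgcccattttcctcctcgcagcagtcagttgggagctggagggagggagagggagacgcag
Both windows are rich in CpG: SLIT2 has 36 CpG dinucleotides and 74.3% GC, and SLIT1 has 27 and 68.0%, where the median GC over 35116 promoter windows is 58.7%. The ratio of observed to expected CpG is 0.876 in both, against a median of 0.579. The SLIT2 window holds 1 match to TATAA, the core of the TATA box, which 20.4% of all windows of this length hold. Neither window holds CCAAT (34.6% of windows), the FOXO motif GTAAACA (3.42%), the TCF motif CTTTGAT (2.62%), the AP-1 motif TGANTCA (7.71%) or the E-box CAGGTG (20.6%). The SLIT1 window holds none of the 6. A match is only a match of letters, and methylation or binding at these windows was not measured in these libraries.

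ROBO1, the broadly expressed SLIT receptor, was the most abundant receptor and it fell. It lies on chromosome 3 (GRCh37, 78646389 to 79817148, minus strand). Its level was 48.9, 50.2 and 55.6 CPM in control and 36.0, 35.7 and 31.8 CPM in knockdown. No knockdown value reached the lowest control value. For ROBO1 the log2 fold change was -0.55 ± 0.06 (SE; 95% interval -0.68 to -0.42; edgeR adjusted p 7.78e-07), 1.47-fold lower.

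ROBO2, a receptor studied mostly in neurons and in kidney development, lies on the same chromosome (GRCh37, 75955846 to 77699115, plus strand). It was scarce in control, with 17, 17 and 20 counts, and scarcer in knockdown, with 8, 2 and 4 counts. This is 1.35, 1.35 and 1.69 CPM against 0.558, 0.117 and 0.221 CPM, with no overlap. The log2 fold change was -2.30 ± 0.42 (SE; 95% interval -3.18 to -1.42; edgeR adjusted p 0.000235). ROBO2 had enough counts to be tested through its control libraries alone, the group where it was higher. Its call is therefore a description and not support for a fall. Among tested genes with a mean under 50 counts, the class to which ROBO2 belongs, 24.6% were called lower and 4.04% higher, against 18.1% lower among those with more counts. Knockdown replicate 1 had the most counts of its group, and without it the fall was larger (log2 fold change -3.004, edgeR adjusted p 9.40e-05). Over 13 alternatives the adjusted p ranged from 1.58e-06 to 0.00283. With the deeper libraries thinned to the depth of the smallest, the log2 fold change was -2.17.

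ROBO3, the receptor that lets commissural axons cross the midline and that in mammals hardly binds SLITs, was not called. It was at 6.12, 6.05 and 5.67 CPM in control and 6.56, 5.33 and 5.69 CPM in knockdown, and the groups overlapped. The log2 fold change was 0.00118 ± 0.14 (SE; edgeR adjusted p 0.996), with a 95% interval from -0.29 to 0.29. Changes within that interval could not be told from none at this depth.

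Among the receptors, ROBO1 gave 82.5% to 84.8% of the summed level per kilobase in control and 77.5% to 81.3% in knockdown. ROBO3 gave 13.2% to 15.8% and 18.5% to 21.6%, and ROBO2 1.72% to 1.98% and 0.205% to 0.923%. The summed receptor level was 8.56, 8.74 and 9.47 CPM per kb in control and 6.71, 6.35 and 5.87 in knockdown, all lower. ROBO4, the endothelial ROBO, had 1 to 7 counts in a library.

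**Figure D2:**
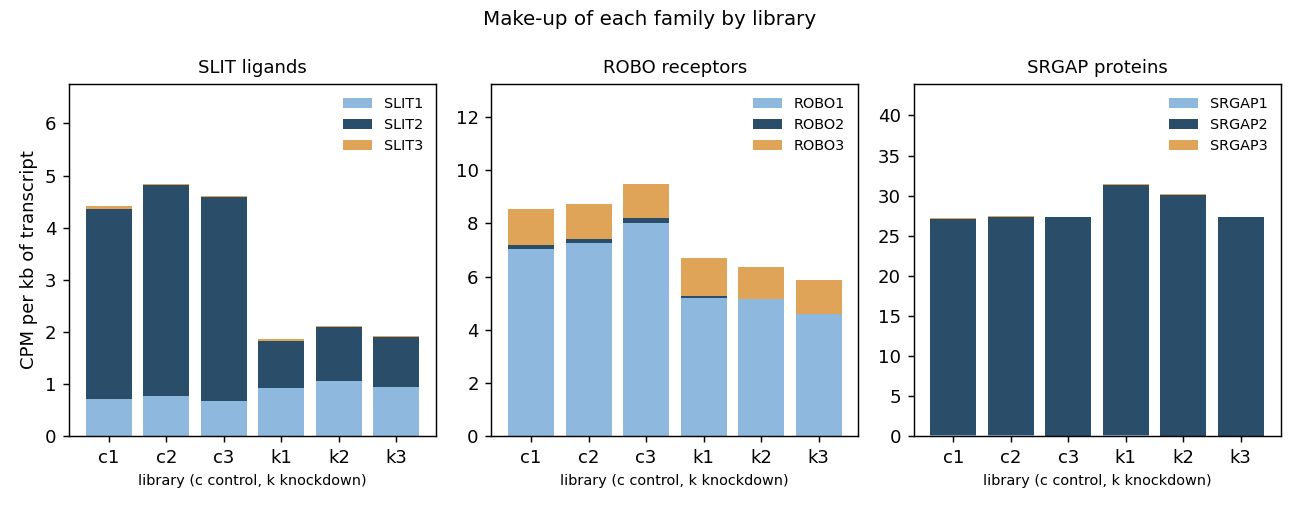
Level per kilobase of transcript (CPM per kb, vertical axes from 0) of the members of each family, stacked, in control libraries c1 to c3 and knockdown libraries k1 to k3. SLIT2 gives most of the ligand level in control and about as much as SLIT1 in knockdown, ROBO1 gives most of the receptor level in both groups, and SRGAP2 nearly all of the SRGAP level.

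An intron of SLIT2 hosts the microRNA gene MIR218-1, and one of SLIT3 hosts MIR218-2. Both give the same mature miR-218-5p, known to repress ROBO1, so its sequence (RefSeq, 5′ to 3′) and its matches in the 3′ untranslated regions of all members are given. Capitals mark the seed, bases 2 to 8, in the microRNA, and the complementary 7 bases AAGCACA in the transcripts (GRCh37, sense strand).
hsa-miR-218-5p: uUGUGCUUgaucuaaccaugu
ROBO1 chr3:78647085-78647106 (minus strand): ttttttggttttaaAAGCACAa
ROBO2 chr3:77695648-77695669 (plus strand): ttttatttggtgatAAGCACAa
ROBO2 chr3:77698093-77698114 (plus strand): atcatgtccaatacAAGCACAg
SLIT2 chr4:20620917-20620938 (plus strand): ctgaagacaagcagAAGCACAt
SLIT2 chr4:20621026-20621047 (plus strand): cactaggacataccAAGCACAt
SLIT3 chr5:168090656-168090677 (minus strand): ggcaagagtatgggAAGCACAc
SRGAP1 chr12:64543536-64543557 (plus strand): caaaaaggtcctaaAAGCACAg
SRGAP1 chr12:64553520-64553541 (plus strand): ctgtaatgctagaaAAGCACAg
SRGAP2 chr1:206637724-206637745 (plus strand): ttggggaaaatccaAAGCACAa
ROBO1 has 1 match in 1674 nt and ROBO2 has 2 in 3911 nt. In ROBO1, in SRGAP2 and in the first ROBO2 site the match is followed by an A. SLIT2, the host, has 2 matches in 1552 nt. SRGAP1, which was not called, has 2 in 19545 nt, SLIT3, which was not tested, has 1 in 4714 nt, and SRGAP2 has 1 in 3011 nt. SLIT1, which was called higher, and the uncalled ROBO3 and SRGAP3 have none in 3074, 221 and 4928 nt. Of 12633 tested genes with an annotated region, with a median length of 1337 nt, 15.8% hold the 7 bases and 4.84% hold them followed by A. The rows of MIR218-1 and MIR218-2 were at 0 counts in all 6 libraries. These libraries do not measure the mature microRNA, so its level in either group was not analysed here.

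The SRGAPs bind the cytoplasmic tail of ROBO1 and switch off small GTPases. SRGAP2, which also shapes membrane protrusions, was by far the most abundant and was slightly higher in knockdown. It lies on chromosome 1 (GRCh37, 206516200 to 206637783). It had 160.7, 162.6 and 162.2 CPM in control and 186.5, 179.1 and 162.5 CPM in knockdown, so knockdown replicate 3 fell within the control range. SRGAP2 had a log2 fold change of 0.15 ± 0.04 (SE; 95% interval 0.06 to 0.24; edgeR adjusted p 0.00827). Without knockdown replicate 1 the call was lost (log2 fold change 0.11, adjusted p 0.0536; range over 14 alternatives 0.000140 to 0.0536).

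Humans carry partial copies of SRGAP2 that are nearly identical to it, so how reads were split between them is uncertain. SRGAP2C was at 23.9, 28.6 and 25.6 CPM in control and 30.9, 35.1 and 32.3 in knockdown (log2 fold change 0.36 ± 0.07 SE, edgeR adjusted p 0.000486). SRGAP2B was at 34.0 ± 2.67 and 34.7 ± 2.04 CPM (SD, n = 3 each; adjusted p 0.535). Their sum with SRGAP2 was 219.1, 222.3 and 224.3 CPM in control and 253.5, 249.8 and 227.2 in knockdown, with no overlap, and SRGAP2 held 71.5% to 73.6% of it in every library.

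SRGAP1, the family member first found on ROBO1, was at 3.58, 3.34 and 2.54 CPM in control and 2.72, 2.64 and 1.99 CPM in knockdown. The groups overlapped, and the log2 fold change was -0.35 ± 0.21 (SE; 95% interval -0.79 to 0.09; edgeR adjusted p 0.207). SRGAP3, which acts on RAC1 in neurons, had 12, 11 and 11 counts in control and 4, 16 and 5 in knockdown. Knockdown replicate 2 stood at the control level and the other two below it. SRGAP3 had a log2 fold change of -0.83 ± 0.44 (SE; 95% interval -1.74 to 0.09; edgeR adjusted p 0.149). Without knockdown replicate 2 it was -1.67 and past the threshold (adjusted p 0.0135; range over 13 alternatives 0.0135 to 0.421), so this 1 library decides the call.

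**Figure D3:**
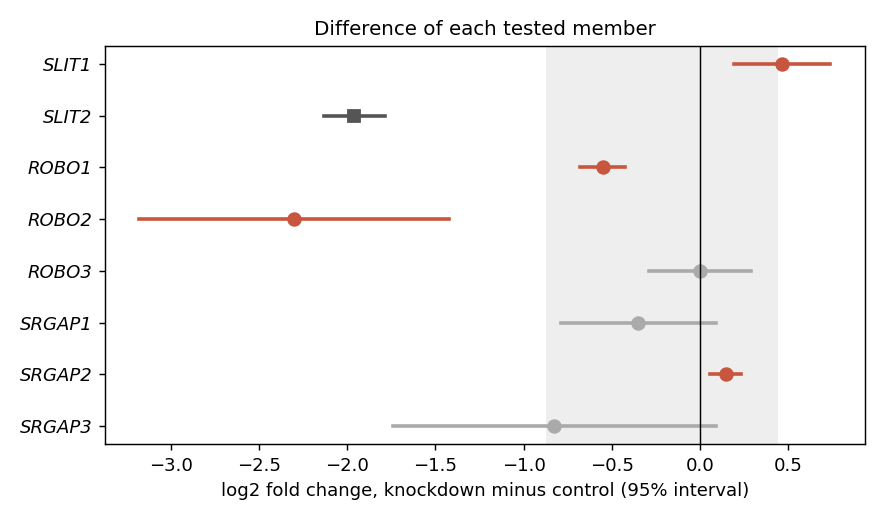
Log2 fold change (horizontal axis, knockdown minus control) with its 95% interval for the 8 members with enough counts. Red marks an adjusted p under 0.05 and light grey a larger one. The dark square is SLIT2, which was chosen by this same value. Its interval is drawn as a description and is not a test against 0. The shaded band holds the middle of all tested genes, from the 5th to the 95th percentile (-0.87 to 0.44); the points of SLIT2 and ROBO2 lie below it and that of SLIT1, at 0.47, just above it.

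Ordered by level per kilobase in control, SRGAP2 came first (27.1 CPM per kb), followed by ROBO1 (7.44), SLIT2 (3.87), ROBO3 (1.31), SLIT1 (0.723), ROBO2 (0.163), SRGAP1 (0.138), SRGAP3 (0.103) and SLIT3 (0.0220). ROBO2 and SRGAP1 overlapped in that order. In knockdown the order was SRGAP2 (29.5), ROBO1 (4.98), ROBO3 (1.29), SLIT1 (0.979), SLIT2 (0.971), SRGAP1 (0.107), SRGAP3 (0.0558), ROBO2 (0.0331) and SLIT3 (0.0149). There the values of SLIT1 and SLIT2 overlapped, as did those of SRGAP1 with SRGAP3, SRGAP3 with ROBO2 and ROBO2 with SLIT3. SLIT2 thus stood above ROBO3 in control and below it in knockdown. The level of SRGAP1 depends on its annotated transcript of 22920 nt, most of it a 3′ untranslated region of 19545 nt. SRGAP2 has no canonical transcript on this build, and its longest one, 5967 nt, was used.

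The wider pathway was described from a list of 35 partners of SLIT and ROBO. Of these, 30 were tested, 3 were called higher and 8 lower (edgeR, 36.7%, against 38.5% of all tested genes), and none of those called changed as much as 2-fold. The median log2 fold change was -0.04. CXCR4, the chemokine receptor whose signal SLIT2 is known to dampen, was at 62.8, 58.8 and 56.3 CPM in control and 37.7, 37.6 and 40.4 in knockdown (log2 fold change -0.59 ± 0.05 SE, adjusted p 7.99e-08). Its ligand CXCL12 had at most 3 counts in a library. RAC1, the GTPase on which ROBO signalling acts, went from 492 ± 6.89 down to 391 ± 5.99 CPM (SD; 3 libraries each; log2 fold change -0.30, adjusted p 1.07e-07). PAK1, a kinase that RAC1 activates, fell from 25.2 ± 0.791 to 18.1 ± 0.627 CPM (SD; log2 fold change -0.45, adjusted p 4.19e-05). CDC42, another such GTPase, did not pass the threshold (log2 fold change -0.08, adjusted p 0.0562).

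The Ena/VASP proteins, actin regulators that bind the tail of ROBO1, did not move together. ENAH rose from 62.2 ± 4.29 to 71.3 ± 3.34 CPM (SD over 3 libraries; log2 fold change 0.23, edgeR adjusted p 0.00200). EVL fell from 14.6 ± 0.850 to 10.3 ± 0.186 CPM (log2 fold change -0.47, adjusted p 0.000359), and VASP did not pass (0.09, adjusted p 0.0575). PRRG4, whose fly relative keeps ROBO off the cell surface, fell from 3.47 ± 0.516 to 1.82 ± 0.287 CPM (log2 fold change -0.88, adjusted p 0.00251). NDFIP2, an adaptor that sends ROBO1 to degradation, fell as well (log2 fold change -0.30, adjusted p 0.000132). The remaining called genes had smaller margins and lost their call in several alternatives: MYO9B (0.13, adjusted p 0.0274) in 6, FLRT3, a ROBO1 co-receptor (-0.57, adjusted p 0.0432), in 8, and USP33, a deubiquitinase that acts on ROBO1 (-0.13, adjusted p 0.0464), in 10. NELL2, a secreted ROBO3 ligand, was at 195 ± 0.280 and 187 ± 6.14 CPM and was not called (log2 fold change -0.03, 95% interval -0.10 to 0.04). EVL, PRRG4, NDFIP2, FLRT3, USP33, NELL2, VASP, CDC42 and CXCL12 were named after their values were seen.

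Heparan sulfate chains bridge SLIT and ROBO, and the genes that make, trim and carry them held larger changes. Of 23 listed genes 21 were tested, 4 were called higher and 8 lower (57.1%, against 38.5% of all tested genes), and 5 of the lower ones fell at least 2-fold, a class that holds 4.32% of all tested genes. The median log2 fold change was 0.00937. The 5 were 3 core proteins, 1 sulfotransferase and 1 sulfatase. GPC3, GPC6 and the sulfatase SULF1 averaged 49.2, 32 and 15 counts. Among tested genes with a mean under 50 counts, 24.6% were called lower and 4.04% higher. SDC2 and HS6ST2 averaged more, at 80.5 and 118.8 counts. GPC3, a glypican anchored in the membrane, was at 6.04, 5.97 and 6.60 CPM in control and 1.12, 1.41 and 1.44 in knockdown (log2 fold change -2.18 ± 0.19 SE, adjusted p 3.51e-08). GPC6, another glypican, was at 4.13, 3.10 and 4.32 against 0.977, 0.938 and 1.10 CPM (-1.89 ± 0.23 SE, adjusted p 2.92e-06). SDC2, a transmembrane syndecan, was at 8.74, 10.4 and 9.39 against 2.65, 2.40 and 2.87 CPM (-1.81 ± 0.15 SE, adjusted p 1.51e-08).

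None of these 3 overlapped between groups. HS6ST2, which adds 6-O-sulfate, fell from 13.7 ± 1.86 to 4.28 ± 0.879 CPM (SD over 3 libraries; log2 fold change -1.66, edgeR adjusted p 3.24e-08). SULF1, which removes 6-O-sulfate outside the cell, fell from 1.69 ± 0.647 to 0.546 ± 0.194 CPM (-1.60, adjusted p 0.00175). Its paralogue SULF2, at 26.2 CPM per kb in control against 0.299 for SULF1, rose from 99.6 ± 2.62 to 134 ± 8.87 CPM (0.45, adjusted p 2.29e-07). Among the other core proteins, SDC3 rose from 174 ± 1.31 to 209 ± 4.77 CPM (0.30, adjusted p 7.67e-07), whereas GPC1 (log2 fold change -0.000851, 95% interval -0.08 to 0.08) and SDC1 (0.06, interval -0.02 to 0.15) were not called. Of the chain-building enzymes, EXT1 (-0.37, adjusted p 0.000364) and HS2ST1 (-0.22, adjusted p 0.00351) fell. EXTL3 (0.17, adjusted p 0.0130) and GLCE (0.18, adjusted p 0.0393) were higher, with the call lost in 3 and 8 of 14 alternatives. GPC4 also fell (-0.30, adjusted p 0.000261). EXT1, HS2ST1, GPC4, GLCE, GPC1 and SDC1 were named after their values were seen.

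Netrins and their receptors are the other classical midline guidance system, and DCC, the netrin receptor that binds ROBO1, was at 0 counts in every library. Of 15 listed genes 9 were tested, 2 were called higher and 4 lower (66.7%, against 38.5% of all tested genes), with a median log2 fold change of -0.23. UNC5C, a repulsive netrin receptor, was at 3.81, 5.02 and 3.38 CPM in control and 1.05, 1.17 and 1.10 in knockdown (log2 fold change -1.84 ± 0.23 SE, adjusted p 3.67e-06). UNC5B, its relative, was at 7.63, 7.64 and 9.65 against 3.84, 3.98 and 3.09 CPM (-1.16 ± 0.15 SE, adjusted p 6.18e-06). For both, all knockdown values were below all control values. UNC5C, with a mean of 34.3 counts, belongs to the class under 50 counts, UNC5B, with 80.8, does not.

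NTN4, a netrin of basement membranes, fell from 1.19 ± 0.251 to 0.419 ± 0.0743 CPM (SD over 3 libraries; log2 fold change -1.44, edgeR adjusted p 0.00371), and RGMB, a ligand of neogenin, by less (-0.23, adjusted p 0.0120). With DESeq2's Wald test neither was called (adjusted p 0.0588 and 0.152). NTN1 itself was not called (8.73 ± 0.921 and 7.57 ± 0.724 CPM, SD, n = 3 each; log2 fold change -0.18, 95% interval -0.44 to 0.08). NEO1, the neogenin receptor (0.18, adjusted p 0.0105), and DRAXIN, a secreted netrin antagonist (0.62, adjusted p 0.0258), were higher. Both lost the call with DESeq2's Wald test (adjusted p 0.0539 and 0.155) and without control replicate 1 (0.0743 and 0.0647). NEO1 also lost it without knockdown replicate 2 (0.0578), DRAXIN without control replicate 3 (0.0951) or knockdown replicate 1 (0.111), and RGMB without control replicate 3 (0.0505). In all, RGMB lost the call in 3 of 14 alternatives. NTN4 and DRAXIN averaged 10.8 and 38.2 counts, also in the class under 50 counts. NTN4, one of the genes of this list called lower, had enough counts to be tested through its control libraries alone. Its call is therefore only a description. DCC, NTN1 and RGMB were named after their values were seen.

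**Figure D4:**
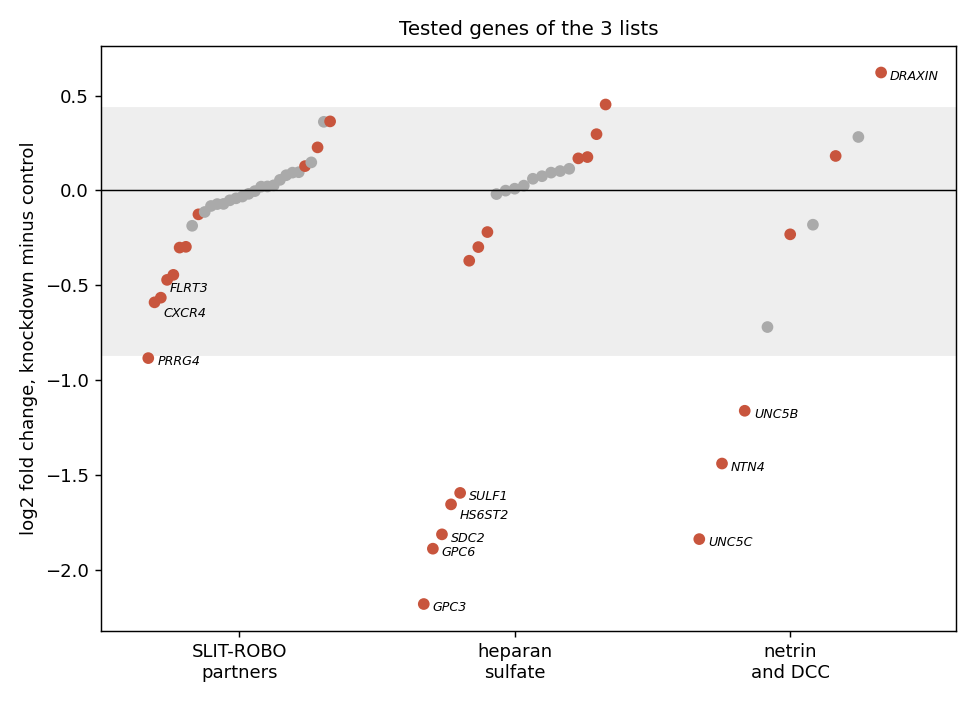
Log2 fold change (vertical axis, knockdown minus control) of each tested gene of the 3 lists, ordered within a list; red points have an adjusted p under 0.05, grey points do not, and the shaded band holds all tested genes from the 5th to the 95th percentile (-0.87 to 0.44). In the partner list only PRRG4 falls below the band, whereas 5 heparan sulfate genes and 3 netrin genes lie at -1.16 or lower. SULF2 (0.45) of the heparan sulfate list and DRAXIN (0.62) of the netrin list lie above the band.

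The 5 genes with the profile closest to that of SLIT2 were PCDH7, EMB, AKR1B1, ID3 and EPB41L3. Closeness was measured, over genes averaging 100 counts or more, as the root mean square difference of log2 CPM over the 6 libraries after each gene was centred on its mean. It ran from 0.0716 for PCDH7, a protocadherin, and 0.0764 for EMB, which encodes embigin, to 0.101 for AKR1B1, an aldo-keto reductase, 0.104 for ID3, an inhibitor of helix-loop-helix factors, and 0.106 for EPB41L3, a membrane-cytoskeleton linker. PCDH7 was at 17.2, 17.4 and 18.3 CPM in control and 4.26, 5.33 and 4.42 in knockdown. Their log2 fold changes lay between -1.95 and -1.81, as the choice of genes close to SLIT2 implies. The protein-coding genes next to SLIT2 on the chromosome behaved otherwise. PACRGL, 76 kb after it, was at 13.3, 13.5 and 13.4 CPM in control and 11.9, 13.8 and 12.9 in knockdown (log2 fold change -0.03, 95% interval -0.21 to 0.16; edgeR adjusted p 0.837). LCORL, 2230 kb before it, was slightly lower (-0.22, adjusted p 0.0238), a call lost in 5 of 14 alternatives.

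**Figure D5:**
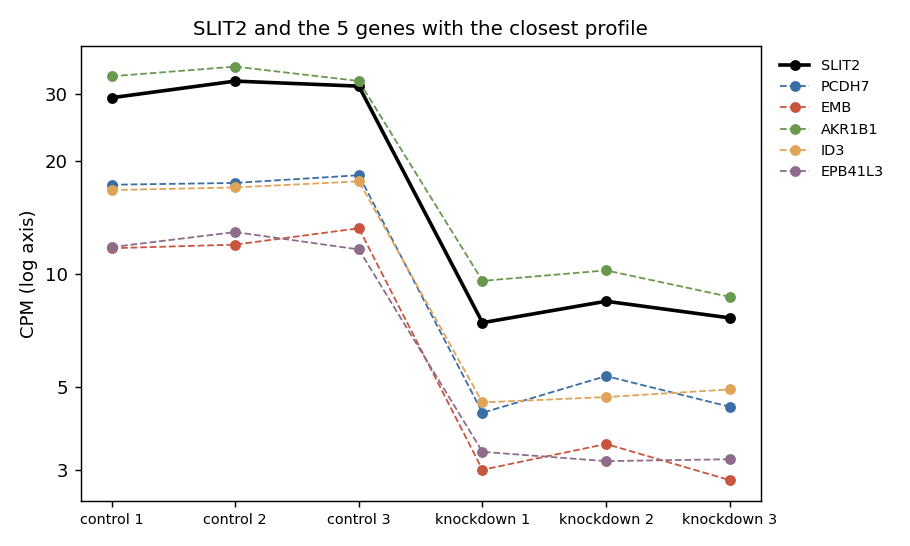
CPM (vertical axis, log scale) of SLIT2 (black, solid) and the 5 genes with the closest profile (dashed) in each library. All 6 lines drop between the control and knockdown libraries; SLIT2 goes from 29.4 to 32.6 CPM down to 7.40 to 8.44 CPM.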

How the data were processed

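The authors deposited whole-number read counts per gene symbol for 6 libraries. Per the submitters' processing notes, STAR 2.6.1a, Salmon, DESeq2 and the hg19 build were used, without stated roles. The annotation and strand setting are not given in the sources used here. A second table, of normalized values, was not used, and 0 other columns were left unused. Counts were tested with edgeR 4.0.16 (R 4.3.3): TMM factors, filterByExpr, a quasi-likelihood F-test on group alone, and Benjamini-Hochberg adjustment over all 13832 tested genes (threshold 0.05). SEs are the absolute log2 fold change over the square root of F. CPM are counts over library totals. Levels per kilobase used canonical transcripts of the GENCODE annotation lifted to GRCh37. For 3 against 3 libraries, the smallest exact permutation p of a single gene is 0.1. Members, lists and tests were chosen with earlier results of these data known. The genes planned to be named were the members, the 3 smallest p-values of each list in each direction, calls of at least 2-fold, IRS2, the neighbours of SLIT2 and the 5 closest profiles. The 47 genes followed through the alternatives were those of them that were tested, every other list gene that edgeR called, SLITRK3 and SLITRK5. Alternatives covered scaling, low-count filter, DESeq2 1.42.0, limma 3.58.1 voom, thinning, a replicate block and leaving out each library. The scripts were tested on simulated data. Not every listed gene is reported here with its values. Amplified reads are not independent molecules, so depth bounds counting error only.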

Additional observations from a re-analysis of the deposited data

How the results depend on the processing

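Over 47 named genes and 14 alternatives, 585 of 646 values held their sign and, apart from SLIT2, which has no test, their side of the 0.05 threshold. Of the others, 53 lost the call, 1 gained it and 7 changed sign. The list genes among the 47 were followed because edgeR called them, so they could lose a call but not gain one. The log2 fold change of SLIT2 ranged from -2.02 to -1.88, that of ROBO1 from -0.59 to -0.49 and that of ROBO2 from -3.004 to -1.92. ROBO3, at 0.00118, changed sign with library size alone (-0.0292), a mean of at least 50 counts (-0.0114), limma voom (-0.00928) and thinning (-0.0708), and ranged from -0.0756 to 0.0652 when 1 library was left out. PACRGL ranged from -0.0787 to 0.0224 when 1 library was left out, and only without knockdown replicate 1 was it above 0. ROBO2, SRGAP1 and SRGAP3 have no value at a mean of at least 50 counts, where fewer genes are tested. That filter called 4746 genes in all, 2339 of them lower, and left 1 lower member, 5 lower heparan sulfate genes, and 3 netrin genes (1 higher, 2 lower). DESeq2's Wald test called 3572 genes in all, 1643 lower (2653 in edgeR) and 1929 higher (2676), 1 higher member, 2 higher heparan sulfate genes, and 2 netrin genes, both lower, with 0 higher (2 at an unadjusted p under 0.05). The cause was not tested. Leaving out 1 library gave 4319 to 5256 calls in all, 2173 to 2658 of them higher, with 1 to 2 higher members, 2 to 4 higher heparan sulfate genes and 0 to 2 higher netrin genes. The 0 came without control replicate 1 in edgeR, with 2 at an unadjusted p under 0.05. The replicate numbers are shared by both groups. The deviations of same-numbered libraries had correlations of 0.04, -0.01 and -0.10, so no strong shared deviation was seen. These values cannot show whether same-numbered cultures were grown or processed together, which is not given in the sources used here. With the replicate block, 4862 genes were called in all against 5329, and 4 members, 9 partner, 11 heparan sulfate and 6 netrin genes. Below about 20 counts per library, as for ROBO2 and SRGAP3, depth limits the precision.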

Other observations

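SLIT1 and SLIT2 had almost the same number of reads in each knockdown library, 105 and 106, 144 and 144, and 138 and 138, whereas in control SLIT1 had 71, 78 and 64 and SLIT2 370, 409 and 373. The match was noticed after the values were seen, and whether it is chance or a fault in the deposited table was not tested.

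The SLITRK genes encode neuronal membrane proteins with leucine-rich repeats like those of the SLITs, but they are no SLIT receptors, and they were chosen after their values were seen. SLITRK5 was at 8.34, 10.7 and 11.3 CPM in control and 2.37, 3.22 and 3.20 in knockdown (log2 fold change -1.73 ± 0.16 SE, edgeR adjusted p 7.61e-08). SLITRK3 was at 1.83, 1.99 and 2.03 CPM in control and 0.209, 0.645 and 0.442 in knockdown (-2.08 ± 0.34 SE, edgeR adjusted p 6.86e-05). It averaged 15.7 counts and had enough to be tested through its control libraries alone, so its call is only a description. Among tested genes with a mean under 50 counts, 24.6% were called lower and 4.04% higher. SLITRK1, SLITRK2, SLITRK4 and SLITRK6 had at most 2 counts in a library. The heparan sulfate carrier GPC5 was uneven among the control libraries, with 1, 7 and 17 counts against 3, 3 and 4 in knockdown, and was too low to be tested.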
